A study of Mus musculus with 16 samples.

Results

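The genes followed here belong to fibroblast growth factor (FGF) signalling: the receptors Fgfr1, Fgfr2 and Fgfr3, the Sprouty genes Spry1, Spry2 and Spry4, the Sprouty-related genes Spred1 and Spred2, the phosphatase gene Dusp6 and the transcription factor gene Etv4. They were chosen by name for their place in the pathway, with earlier results of these data known, and are 10 of the 27128 genes in each deposited table. A mean of at least 1 CPM (read counts put on one scale for all libraries) over the 12 RNA libraries was reached by 14301 genes, among them 9 of these 10. Spry2 was under that minimum. In build GRCm38.p6, RefSeq places Fgfr1 on chromosome 8 at 25518759 to 25575718, Dusp6 on chromosome 10 at 99263231 to 99267489, and Etv4 on chromosome 11 at 101769747 to 101785310.

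The study grew mouse male germline stem cells in culture and sequenced RNA from 12 libraries, each the only library of its group. All groups had the B6;CBA-Tg(Pou5f1-EGFP)2Mnn/J background, in which GFP is driven by Pou5f1 (Oct4) regulatory sequence, and started from GFP-positive, KIT-negative germ cells of mice at postnatal day 5.5. Every culture received StemPro-34 SFM medium with GDNF, bFGF (the FGF2 protein) and EGF, so no group lacked an FGF or an EGF receptor ligand. In the feeder removal experiment, cells were collected from mouse embryonic fibroblast (MEF) feeders at day 0 and then 4 and 9 days after transfer to Matrigel, a basement membrane extract. In the density experiment, the sparse coating, 0.1 µg/cm2 of Matrigel, carried the epithelial-like culture, and the dense coating, 10 µg/cm2, the mesenchymal-like one. In the sorted experiment, cells grown on Matrigel at 10 µg/cm2 were sorted by flow cytometry into 3 fractions, called GFP-low, -mid and -high by reporter level. In the inhibitor experiment, cultures on MEF received DMSO or UNC0638, an inhibitor of the H3K9 methyltransferases G9a and GLP, at 0.5, 1 or 2 µM for 48 h. The cultures on MEF hold feeder cells as well as germ cells, and the labels do not say whether feeders were removed before lysis. The labels also list 4 ATAC-seq libraries, which were not analysed here.

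FGF ligands bind receptor tyrosine kinases together with heparan sulfate, and the active receptor signals through FRS2, GRB2 and SOS to RAS, RAF, MEK and ERK. ERK activity raises the transcription of its own inhibitors. Sprouty and SPRED proteins dampen the step from receptor to RAF, DUSP6 dephosphorylates ERK in the cytoplasm, and ETV4 is an ETS family factor whose transcription follows FGF signalling. In cultures of spermatogonial stem cells, FGF2 is added beside GDNF to support self-renewal. Transcript levels of the feedback genes are often read as a sign of pathway output, but they are not a measurement of phosphorylated ERK.

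With 1 library a group there is no spread between replicates, and the differences below therefore carry neither a check against replicates nor a p-value. Library totals ran from 4335185 to 12019651 counts. Intervals are 95% Clopper-Pearson intervals of the split of reads between a pair of libraries, and they cover counting error only, since amplified reads are not independent molecules. A gene is called higher or lower at a 2-fold difference of CPM + 1, and log2 ratios are on that scale. Levels of different genes are compared in TPM (transcript shares adjusted for gene length), and the same gene between libraries in CPM. The 16 germ cell markers were detected in all 12 libraries, with a summed level of 2701 to 5691 TPM. Of the markers of other cells, the 20 fibroblast genes summed to 112 to 6555 TPM and the 9 myeloid genes to 12.5 to 2634 TPM, and both moved with some comparisons as given below. The Sertoli cell sum was 7.33 to 53.7 TPM and the endothelial sum 6.08 to 11.2 TPM. Among their tested genes, Sox9, Inhbb and Cd34 were called higher in the mesenchymal-like culture, Sox9 and Tek higher and Kdr lower in GFP-high, Inhbb higher and Pecam1 lower at day 4, Inhbb higher at day 9, and Inhbb and Dhh lower at 2 µM UNC0638. The day 4 and day 9 calls of Inhbb rest on 2 counts at day 0. That of Dhh rests on 8 counts under DMSO and 1 at 2 µM, and its interval held 0. The Leydig cell markers Hsd3b1, Cyp17a1, Insl3 and Lhcgr were at 0 counts in every library, Cyp11a1 had at most 10 counts, and Star was detected in all 12 at 0.38 to 5.06 TPM. Star was called higher at day 9, on 63 counts beside 7 at day 0. In RNA from whole cultures, fewer cells of a type and less RNA per cell cannot be told apart.

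Fgfr1 was the main receptor transcript in every library and Dusp6 the most abundant of the 7 feedback and target genes among the members. Fgfr1 supplied between 81.9% and 97.1% of the summed TPM of Fgfr1 to Fgfr4, the lowest share in the GFP-low fraction and the highest in the mesenchymal-like culture. Fgfr1 stood at 39.7, 38.3 and 39.5 TPM at days 0, 4 and 9 of feeder removal. It was at 31.0 TPM in the epithelial-like and 119 TPM in the mesenchymal-like culture. From the GFP-low to the GFP-high fraction Fgfr1 was at 21.1, 53.7 and 74.2 TPM. Under DMSO and UNC0638 at 0.5, 1 and 2 µM, it was at 39.4, 42.2, 61.4 and 47.2 TPM. The mesenchymal-like culture was thus highest and the GFP-low fraction lowest. Of the 11 neighbouring pairs in its order of CPM, 3 had counting intervals that did not overlap, among them the lowest pair, GFP-low and epithelial-like, and the highest pair, GFP-high and mesenchymal-like.

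The other receptor genes were scarce. Fgfr2 ranged from 0.40 TPM in the GFP-low fraction to 2.65 TPM in the GFP-high fraction, and rested on 7 to 69 counts a library. No neighbouring libraries in its order had intervals that were apart. Fgfr3 was at 1.24, 1.33 and 1.55 TPM in the feeder removal libraries and at 2.04 and 2.43 TPM in the epithelial-like and mesenchymal-like cultures. The sorted fractions held 3.92, 5.01 and 7.32 TPM of Fgfr3 from GFP-low to GFP-high, and the inhibitor libraries 4.21 to 6.57 TPM. In its order of CPM, which ran from feeder day 0 to UNC0638 at 2 µM, no neighbours were apart beyond counting error.

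Among the Sprouty genes, which encode inhibitors of receptor signalling, Spry4 was the one with a wide range. Spry4 was at 6.71, 9.40 and 11.2 TPM over feeder removal and at 33.5 and 28.7 TPM in the epithelial-like and mesenchymal-like cultures. From GFP-low to GFP-high it was at 48.3, 24.5 and 12.1 TPM, and from DMSO to the highest dose at 24.0, 24.5, 16.7 and 18.5 TPM. The GFP-low fraction had the highest Spry4 level and feeder day 0 the lowest. Spry1 kept to a narrow range of 8.43 to 16.7 TPM, and the ratio of Spry4 to Spry1 ran from 0.666 at feeder day 0 to 2.89 in the GFP-low fraction. Spry2 was listed at 0 TPM in 4 libraries and reached 1.04 TPM at most, on 7 counts, so no direction is given for it.

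SPRED1 and SPRED2 bind neurofibromin and hold RAS in check. Spred1 was at 9.28, 8.30 and 13.4 TPM over feeder removal, at 20.5 and 23.8 TPM in the epithelial-like and mesenchymal-like cultures, and at 15.1 to 17.9 TPM in the inhibitor experiment. The sorted fractions held 8.01, 16.4 and 17.9 TPM of Spred1 from GFP-low to GFP-high. Spred2 was at 7.94, 7.22 and 9.64 TPM over feeder removal and at 27.6 and 36.1 TPM in the epithelial-like and mesenchymal-like cultures. From GFP-low to GFP-high Spred2 was at 20.2, 29.3 and 31.9 TPM, and from DMSO to 2 µM at 14.3, 18.0, 20.8 and 26.5 TPM. The mesenchymal-like culture held the most of both, but in the order of CPM no neighbours were apart beyond counting error for Spred1 and 2 of 11 pairs were for Spred2.

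Dusp6 was at 70.1, 63.3 and 76.1 TPM over feeder removal. It was at 147 and 141 TPM in the epithelial-like and mesenchymal-like cultures. From GFP-low to GFP-high Dusp6 was at 222, 134 and 91.6 TPM, and from DMSO to 2 µM UNC0638 at 182, 164, 129 and 115 TPM. It made up 44.5% to 66.4% of the summed TPM of the 7 feedback and target genes. Like Spry4, Dusp6 was highest in the GFP-low fraction, and 5 of 11 neighbouring pairs in its order had intervals that were apart. Etv4 was at 5.28, 5.13 and 4.79 TPM over feeder removal and at 29.4 and 26.8 TPM in the epithelial-like and mesenchymal-like cultures. It was at 56.0, 46.0 and 41.2 TPM from GFP-low to GFP-high and at 26.2, 26.7, 29.3 and 33.2 TPM from DMSO to 2 µM. The step between the highest feeder removal library and the lowest of the rest was the widest in its order.

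**Figure D1:**
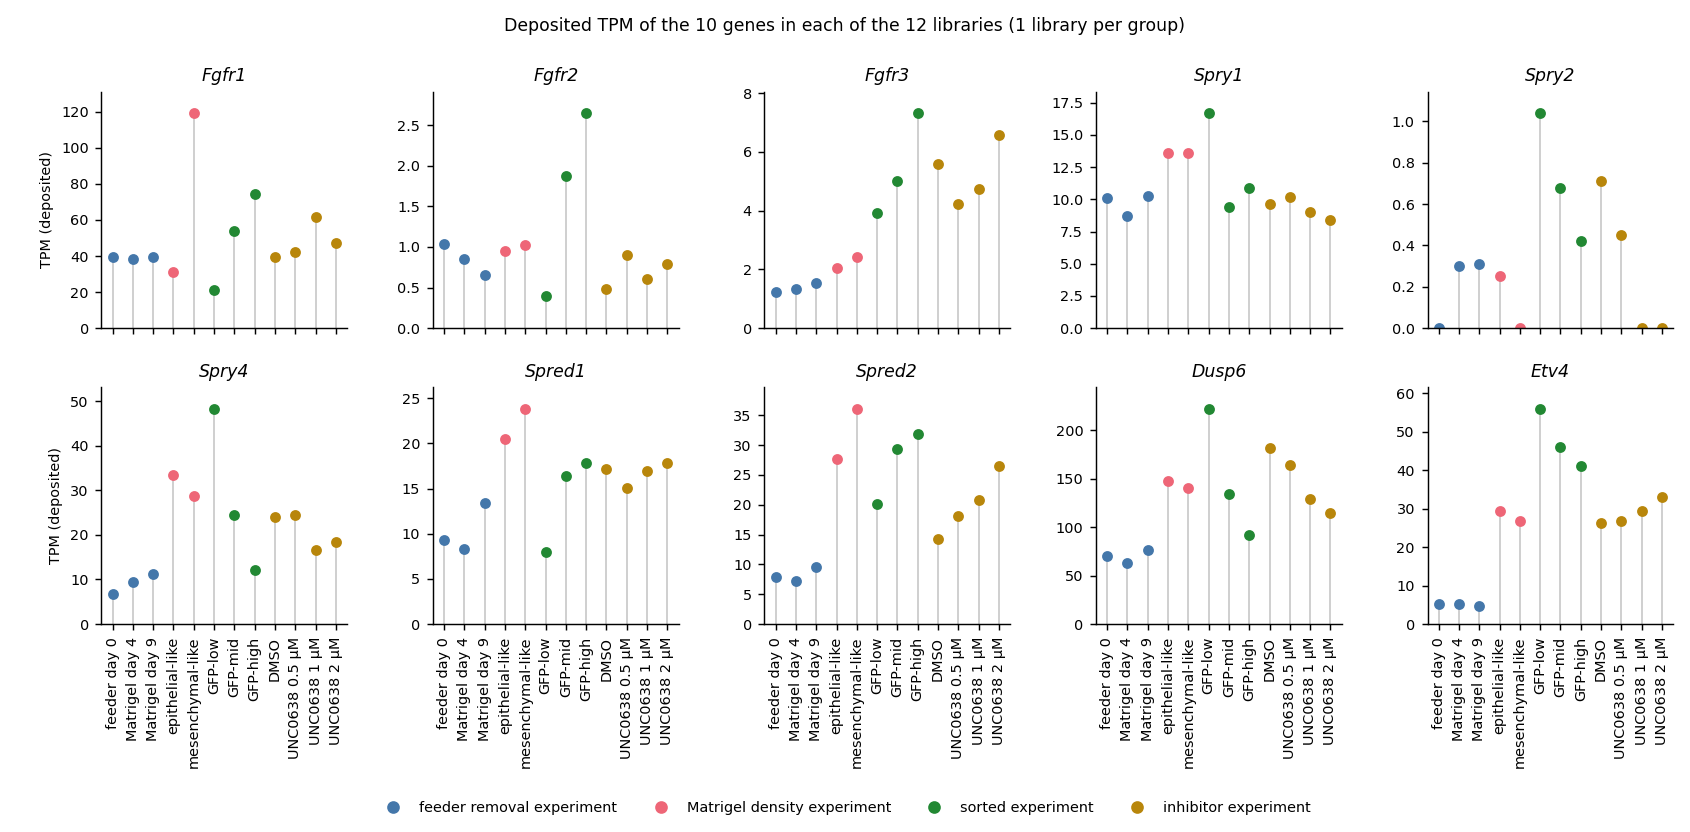
Deposited TPM of the 10 genes in the 12 RNA libraries, 1 point a library, with the libraries along the horizontal axis grouped by experiment and TPM on the vertical axis. Fgfr1 is highest in the mesenchymal-like culture at 119 TPM, Dusp6 and Spry4 are highest in the GFP-low fraction, and Etv4 lies at 4.79 to 5.28 TPM in the 3 feeder removal libraries.

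The feeder removal libraries held less of several feedback genes than all other libraries. Fgfr3, Spry4, Spred2, Dusp6 and Etv4, 5 of the 9 genes tested, were lower in all 3 of these libraries than in any of the other 9, and no gene of the 10 was higher in all 3. Over all genes tested, 13.2% were lower and 14.4% higher in this way, 27.6% in either direction. Etv4 was at 5.94 to 7.13 CPM in the 3 libraries and at 35.3 to 75.9 CPM in the other 9. Dusp6 was at 102 to 114 CPM against 135 to 364 CPM, and Spry4 at 18.4 to 28.3 CPM against 30.0 to 133 CPM. The 3 libraries and the other 9 both include cultures on MEF and cultures on Matrigel. Feeder day 0 and DMSO, both on MEF without inhibitor, are compared below. Other differences between the experiments cannot be told apart from the experiment itself. The germ cell sum was 5556 to 5691 TPM in the 3 libraries and 2701 to 4869 TPM in the other 9, and the Sertoli cell sum 46.4 to 53.7 TPM against 7.33 to 39.7 TPM. The part of either in the gap was not tested.

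A pair of these libraries came from like cultures; the direction of their differences is fixed for the 5 genes just named, and only the sizes are added here. The DMSO library and the feeder day 0 library were both feeder cultures without inhibitor, from different experiments, and 4 of 9 genes were called between them, all higher under DMSO, where 12.2% of all genes tested were called higher and 7.22% lower, 19.4% in either direction. Etv4 rose from 7.13 to 35.3 CPM, a log2 ratio of 2.16 (counting interval 1.87 to 2.77). Fgfr3 rose from 3.11 to 14.0 CPM, Spry4 from 18.4 to 65.9 CPM and Dusp6 from 114 to 296 CPM. Fgfr1 was at 119 and 117 CPM, a log2 ratio of -0.02 that became 0.35 when centred on the germ cell markers, so no direction is given. The summed fibroblast markers were 244 TPM at feeder day 0 and 2084 TPM under DMSO, and their part in these differences was not tested. Differences of this size therefore occurred between libraries that were both grown on MEF without inhibitor, and the differences between groups given below are within an experiment.

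After transfer from feeders to Matrigel, all 9 tested genes were short of a 2-fold difference. None of the 9 was called at day 4, when 2.28% of all genes tested were called, and none at day 9, when 2.6% were. Spry4 had the highest ratio of the 9 on both days, with 18.4 CPM at day 0, 25.6 at day 4 and 28.3 at day 9. Its log2 ratio to day 0 was 0.45 (0.18 to 0.77) at day 4 and 0.59 (0.34 to 0.91) at day 9. Dusp6 was at 114, 102 and 114 CPM and Fgfr1 at 119, 114 and 109 CPM, with log2 ratios between -0.16 and -0.00. The lowest ratio at day 9 was that of Fgfr2, -0.60 (-1.75 to 0.03), on 22 to 30 counts. Spred1 differed at day 9 by a log2 ratio of 0.39 (0.10 to 0.73). For 7 genes at day 4 and 6 at day 9, the counting interval held 0, a count given without a share over all genes tested. The median log2 ratio of the 9 was -0.14 at day 4 and -0.00 at day 9, beside 0.03 and 0.02 over all genes tested. The fibroblast sum was 244, 270 and 245 TPM at days 0, 4 and 9. Lum was called higher at day 4, on 24 counts beside 3 at day 0. At day 9, Postn and Fbln2 were called higher and Acta2 lower, and the myeloid marker Ptprc higher, on 18 counts beside 0 at day 0. The part of these markers was not tested.

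Between the Matrigel densities, Fgfr1 alone among the 9 was called. It rose from 102 CPM in the epithelial-like culture to 406 CPM in the mesenchymal-like culture, 3.98-fold, with a log2 ratio of 1.98 (1.84 to 2.15). Its call, 1 higher and 0 lower of 9, stands beside 12.5% of all genes tested, 10.7% higher and 1.78% lower. None of the feedback genes reached the threshold: Dusp6 was at 265 and 263 CPM, Spry4 at 101 and 90.3 CPM, and Etv4 at 43.9 and 41.5 CPM. Spred2, at 51.2 and 69.5 CPM, had a log2 ratio of 0.44 (0.18 to 0.70), the only other interval above 0. The ratio of Dusp6 to Fgfr1 in TPM was accordingly 4.75 in the epithelial-like and 1.18 in the mesenchymal-like culture.

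Fibroblast markers differed between the same cultures. Of the 20, 19 were called higher in the mesenchymal-like culture, and their sum was 222 TPM in the epithelial-like and 6555 TPM in the mesenchymal-like library. The germ cell sum was 3637 and 2701 TPM. Among the myeloid markers, Fcer1g was called higher, on 3 counts in the epithelial-like and 15 in the mesenchymal-like library. Fibroblasts themselves express Fgfr1, and the part of these markers in the Fgfr1 difference was not tested. When the ratios were centred on the germ cell markers, an alternative chosen after the data were seen, the log2 ratios of Dusp6, Spry4 and Etv4 changed sign to 0.33, 0.19 and 0.27, so no direction is given for them.

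The GFP-sorted fractions gave the most calls of the comparisons within an experiment, upward for Fgfr1 and Fgfr2 and downward for Spry4 and Dusp6. From GFP-low to GFP-mid to GFP-high, Fgfr1 was at 63.6, 155 and 202 CPM, and Fgfr2 at 1.25, 5.31 and 7.32 CPM. Spry4 went the other way, at 133, 64.7 and 30.0 CPM, and so did Dusp6 at 364, 210 and 135 CPM. Each of these 4 genes therefore kept one direction over the 3 fractions. In the GFP-high fraction against GFP-low, Fgfr1 and Fgfr2 rose and Spry4 and Dusp6 fell, 4 of 9 beside 9.54% of all genes tested, split as 6.94% higher and 2.59% lower. In GFP-mid against GFP-low, Fgfr1 and Fgfr2 rose and Spry4 fell, 3 of 9 beside 4.07%, split as 3.38% higher and 0.685% lower.

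Fgfr1 was 3.18-fold higher in GFP-high than in GFP-low, with a log2 ratio of 1.65 (1.53 to 1.81), and 2.44-fold higher in GFP-mid. Fgfr2 had a log2 ratio of 1.88 in GFP-high and 1.48 in GFP-mid, on 10 counts in GFP-low, 67 in GFP-mid and 69 in GFP-high. With a pseudocount of 5 the Fgfr2 ratios were 0.98 and 0.72 and neither was called. Fgfr3, at 9.91, 12.1 and 16.7 CPM, had a ratio of 0.70 (0.35 to 1.16) in GFP-high. Spry4 was 4.44-fold lower in GFP-high, with a log2 ratio of -2.11 (-2.35 to -1.96). In GFP-mid its ratio was -1.03, at the edge of the threshold, and -0.97 with total counts as the scale, where it was not called. Dusp6 was 2.70-fold lower in GFP-high, with a ratio of -1.42 (-1.53 to -1.34), and had -0.79 (-0.87 to -0.72) in GFP-mid. Every one of the 9 counting intervals in GFP-high lay to one side of 0, with 5 above and 4 below. These intervals cover counting error only, and no share over all genes tested is given for this count.

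The other feedback genes of the sorted fractions were split as well. Spry1 was at 23.9, 12.9 and 14.0 CPM, with log2 ratios of -0.84 in GFP-mid and -0.73 in GFP-high. Etv4 was at 75.9, 59.7 and 50.2 CPM, with ratios of -0.34 and -0.59. Spred1 lay in the opposite direction, at 14.2, 27.7 and 28.5 CPM, and its ratio of 0.96 in GFP-high was just under the threshold and 1.05 with total counts as the scale. Spred2 was at 34.1, 47.4 and 48.5 CPM, with a ratio of 0.50 in GFP-high. Within the feedback group, Spry1, Spry4, Dusp6 and Etv4 were thus highest in the GFP-low fraction, and Spred1 and Spred2 lowest there. The ratio of Dusp6 to Fgfr1 in TPM was 10.5, 2.50 and 1.23 from GFP-low to GFP-high. The summed myeloid markers were 2634, 2386 and 351 TPM in the same order, and all 9 were called lower in GFP-high but none in GFP-mid. The fibroblast sum was 115, 112 and 221 TPM and the germ cell sum 4414, 4498 and 4869 TPM. Of the 16 germ cell markers, Rhox10 was called higher and Nanos2 lower in GFP-high, and none was called in GFP-mid. These 1 higher and 1 lower in GFP-high stand beside 6.94% and 2.59% of all genes tested. Of the 20 fibroblast markers, 9 were called higher and 0 lower in GFP-high, with a median of 0.70 beside -0.02 over all genes tested. In GFP-mid, Col1a1, Col1a2 and Col3a1 were called higher and Acta2 and S100a4 lower. The part of the myeloid, fibroblast and germ cell markers in the differences between the fractions was not tested.

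**Figure D2:**
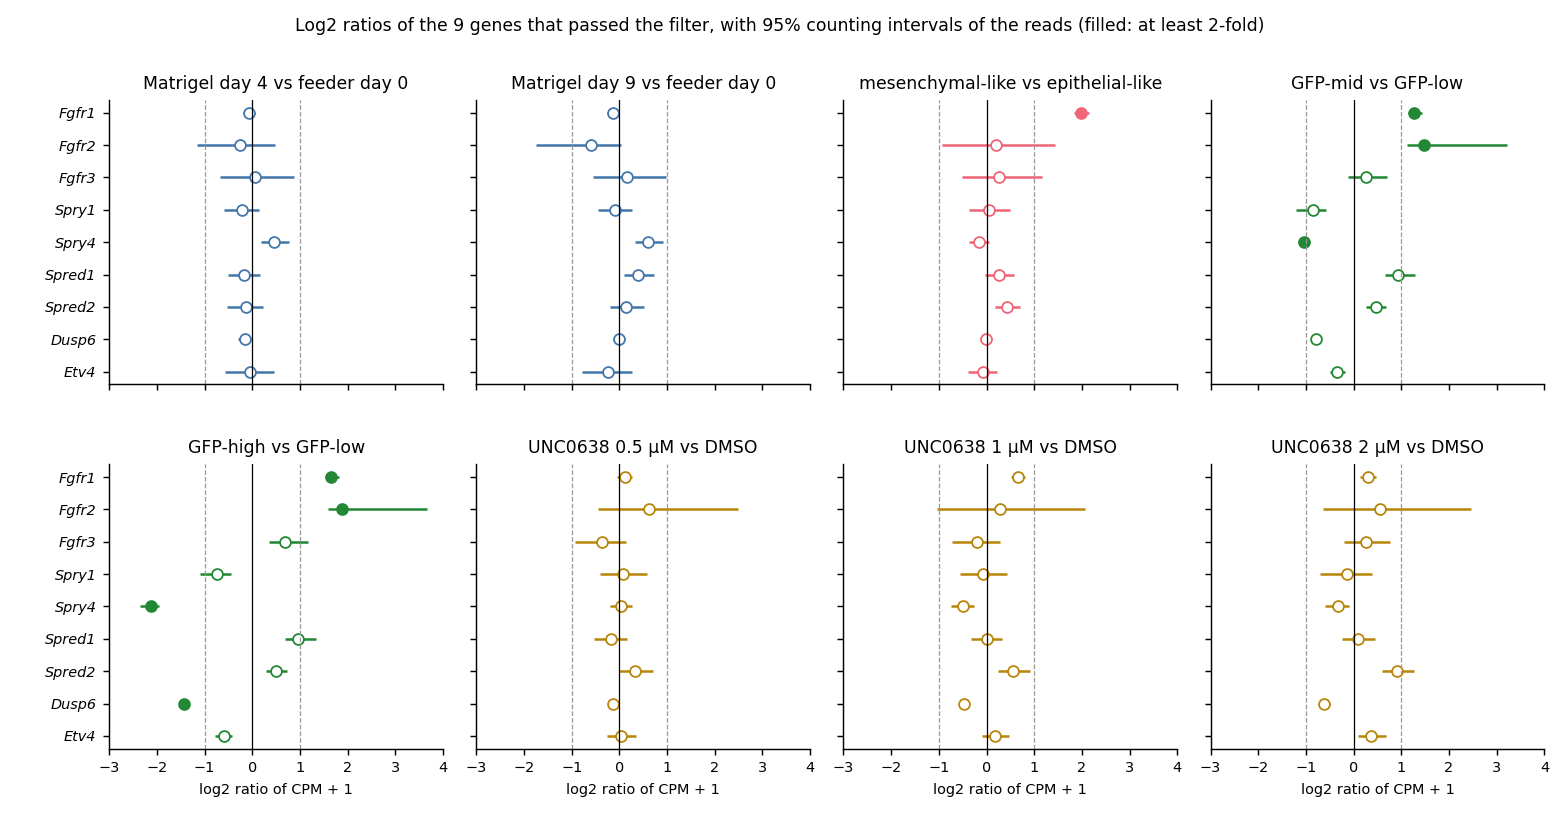
Log2 ratio of CPM + 1 for the 9 genes tested in each comparison, with bars for the 95% counting interval of the read split dashed lines at the 2-fold threshold and filled points for genes past it. Fgfr1 is past it upward at the higher Matrigel density and, with Fgfr2, in GFP-mid and GFP-high, Spry4 is past it downward in GFP-mid and GFP-high and Dusp6 in GFP-high, and no gene passes it in the feeder removal or inhibitor comparisons.

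Promoter sequence is shown for the feedback genes whose ratios lay in opposite directions over the GFP fractions, Dusp6 and Spry1 on the one side and Spred1 and Spred2 on the other. RefSeq promoter windows of build GRCm38.p6 were found for 7 of the 10 genes, in 8 windows; those of Fgfr1, Spry4 and Etv4 were not used here. The 250 bases before the start of each gene are given 5′ to 3′, all on the plus strand, with capitals at each GGAA or its complement TTCC, the core bound by ETS family factors such as ETV4. The windows are chr10:99262981-99263230 for Dusp6, chr3:37639697-37639946 for Spry1, chr2:117120821-117121070 for Spred1 and chr11:19924192-19924441 for Spred2.
Dusp6: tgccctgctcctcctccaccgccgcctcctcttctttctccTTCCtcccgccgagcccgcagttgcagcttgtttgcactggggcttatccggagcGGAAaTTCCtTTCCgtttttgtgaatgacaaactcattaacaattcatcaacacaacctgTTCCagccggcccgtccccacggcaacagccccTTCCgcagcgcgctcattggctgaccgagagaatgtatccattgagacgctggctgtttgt
Spry1: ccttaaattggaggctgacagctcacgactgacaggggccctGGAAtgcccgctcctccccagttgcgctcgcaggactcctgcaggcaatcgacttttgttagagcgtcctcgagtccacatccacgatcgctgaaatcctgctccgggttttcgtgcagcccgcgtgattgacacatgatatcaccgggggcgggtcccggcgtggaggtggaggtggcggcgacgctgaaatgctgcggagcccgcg
Spred1: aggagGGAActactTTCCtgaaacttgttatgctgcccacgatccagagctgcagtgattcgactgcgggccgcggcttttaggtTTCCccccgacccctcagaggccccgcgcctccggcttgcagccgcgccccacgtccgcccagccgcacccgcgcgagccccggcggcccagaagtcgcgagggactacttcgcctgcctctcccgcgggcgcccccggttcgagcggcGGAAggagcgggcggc
Spred2: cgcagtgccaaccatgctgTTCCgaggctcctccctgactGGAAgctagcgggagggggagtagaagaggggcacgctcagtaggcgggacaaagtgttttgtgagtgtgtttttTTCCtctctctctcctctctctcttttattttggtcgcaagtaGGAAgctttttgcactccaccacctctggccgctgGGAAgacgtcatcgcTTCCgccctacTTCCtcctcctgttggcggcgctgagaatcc

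On both strands together, GGAA occurred 6 times before Dusp6, 1 time before Spry1, 4 times before Spred1 and 7 times before Spred2. So short a motif was in 93.4% of all 32851 mouse promoter windows of this length. The longer ETS form CCGGAAG, which contains GGAA, was in 6.91% of windows and the AP-1 motif TGANTCA in 6.75%, and neither was in any of the 8 windows of these genes. These matches describe letters in the windows, and binding was not measured here.

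With UNC0638, all 9 genes were short of a 2-fold difference at each dose. No gene of the 9 was called at 0.5 µM, beside 3.71% of all genes tested, at 1 µM, beside 6.71%, or at 2 µM, beside 7.01%. The 3 doses share 1 DMSO library, so its error enters each ratio. Dusp6 was at 296 CPM under DMSO and at 268, 213 and 192 CPM at the rising doses. Its log2 ratio was -0.14 (-0.25 to -0.04), -0.47 (-0.58 to -0.36) and -0.62 (-0.75 to -0.50), each interval below 0. Spred2 was at 24.0 CPM under DMSO and at 30.4, 35.4 and 45.8 CPM, with a ratio of 0.91 (0.60 to 1.27) at 2 µM. Dusp6 was thus lower and Spred2 higher at each successive dose, by less than the threshold, but the counting intervals of neighbouring doses overlapped for Spred2 throughout and for Dusp6 except between 0.5 and 1 µM.

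The other genes showed no such order or differed less under UNC0638. Fgfr1 was at 117 CPM under DMSO and at 127, 186 and 145 CPM, highest at the middle dose, and its ratio at 0.5 µM turned from 0.11 to -0.06 when centred on the germ cell markers. Spry4 was at 65.9 CPM and then 67.4, 46.2 and 52.0 CPM, lowest at the middle dose. Etv4 was at 35.3 CPM and then 36.2, 40.1 and 46.0 CPM, with a ratio of 0.37 (0.08 to 0.68) at 2 µM. Fibroblast markers were lower in the treated libraries, with a sum of 2084 TPM under DMSO and 999, 410 and 624 TPM at the rising doses, and 12, 19 and 16 of the 20 called lower. Lum, among these at each dose, reached the filter's mean only with the DMSO library counted. The germ cell sum was 4147 TPM under DMSO and 4483, 4474 and 4057 TPM. Among the myeloid markers, Ptprc was called higher at 2 µM, on 13 counts beside 3 under DMSO. The part of the fibroblast markers in the inhibitor values was not tested.

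**Figure D3:**
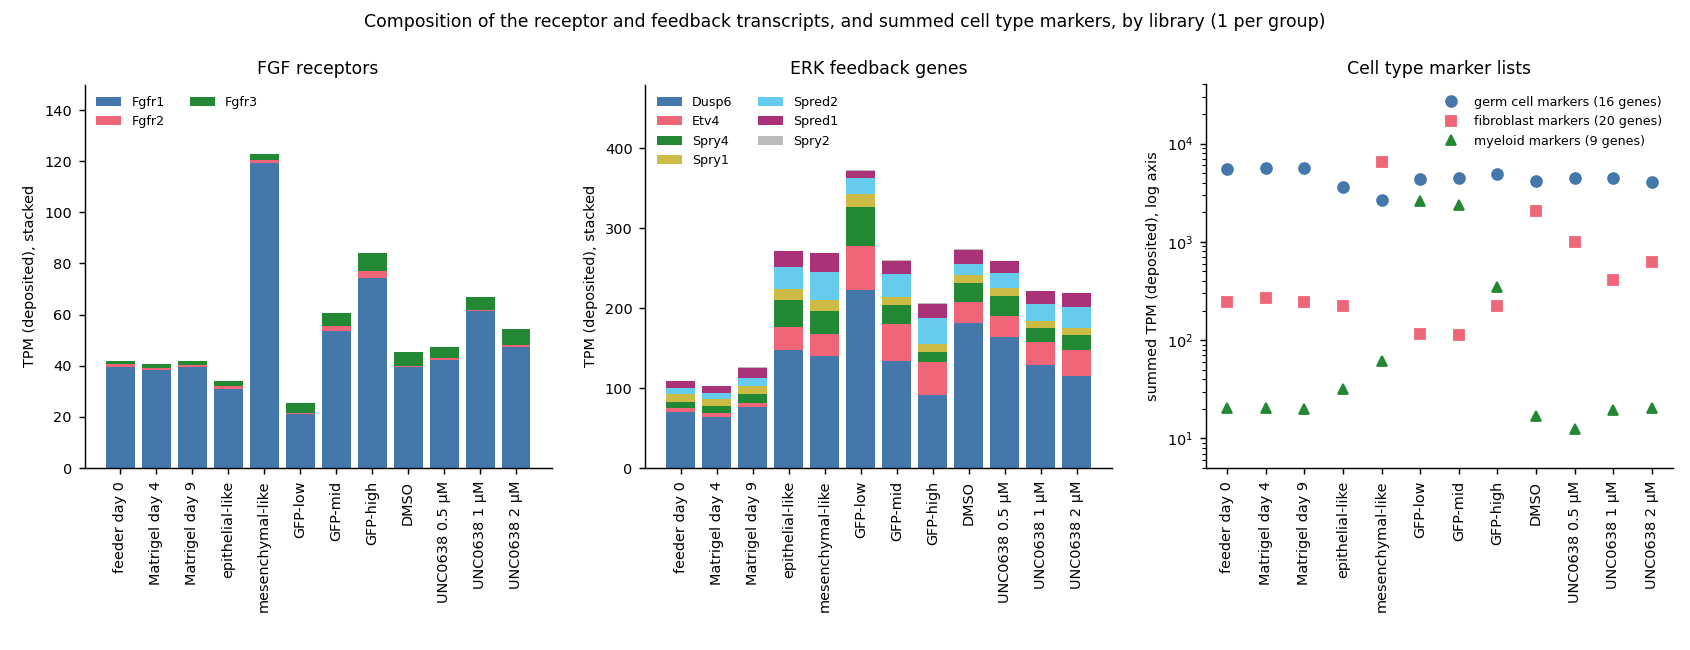
Stacked bars of deposited TPM for the receptors (left) and the 7 feedback and target genes (middle), and summed TPM of 3 marker lists on a log axis (right), in the 12 libraries along the horizontal axes. Fgfr1 and Dusp6 fill most or the largest part of their bars, the fibroblast sum is highest in the mesenchymal-like culture at 6555 TPM, and the myeloid sum is highest in the GFP-low fraction at 2634 TPM.

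Other genes of the pathway were read from fixed lists. Of 22 genes of the FGF family only 4 passed the filter: the secreted ligand genes Fgf7, Fgf9 and Fgf10, and Fgf13, whose product is an intracellular homologous factor and not a receptor ligand. Fgf2, which encodes the ligand supplied in the medium, was at 0 to 1.04 TPM. Fgf7, a ligand made by mesenchymal cells, had 2 counts in the epithelial-like and 161 counts in the mesenchymal-like library, 38.9 CPM. It fell at 1 and 2 µM UNC0638, by 2.28 and 1.91 on the log2 scale, where 6.71% and 7.01% of all genes tested were called. Between densities and at both doses the fibroblast markers moved in the same direction as Fgf7, with 19 of 20 higher in the mesenchymal-like culture and 19 and 16 lower at 1 and 2 µM, and their part was not tested. Fgf10 had 22 counts under DMSO and 1 count at 2 µM. Its mean reached the filter's 1 CPM only with the DMSO library counted, so these counts are given without a call. Fgf9, which signals through FGFR3 among other receptors, fell from 20.4 CPM in GFP-low to 8.92 CPM in GFP-high, a ratio of -1.11, or -0.87 with a pseudocount of 5, where it was not called.

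Among the 9 tested genes for other receptors and co-receptors, the heparan sulfate proteoglycan genes Sdc2, Gpc1 and Gpc4 rose in the mesenchymal-like culture, with ratios of 3.02, 2.68 and 1.08, in the library with the high fibroblast sum given above. These 3 of 9 stand beside 10.7% of all genes tested called higher, and Gpc4 was at 0.98 with a pseudocount of 5 and not called. In GFP-high against GFP-low, Gpc1 and Gpc3 had ratios of 1.28 and 1.24, which were 0.84 and 0.89 with a pseudocount of 5 and not called. Fgfr4 and Kl, a co-receptor of endocrine FGFs, barely passed the filter, at means just over 1 CPM that include the fraction where each was highest, so their counts are given without a call. Fgfr4 had 5 counts in GFP-low and 29 in GFP-high, and Kl had 32 and 8. Under DMSO Kl had 9 counts, and 0 at each UNC0638 dose. Sdc4 was the most abundant of that list, at 451 to 1499 TPM.

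Of 10 other growth factor receptors, 2 rose and 2 fell in GFP-high, beside 6.94% and 2.59% of all genes tested. Those of GDNF fell, Gfra1 by 1.57 and its partner Ret by 1.16, while Kit, the receptor lacking on the starting cells, rose by 1.05 and Pdgfrb, which is also among the fibroblast markers, by 1.19. Gfra1 also fell in GFP-mid, by 1.13, and Met had a ratio of 1.15 at day 9. In the mesenchymal-like culture Egfr and Pdgfrb rose, 2 of 10 beside 10.7% of all genes tested. Under UNC0638, Pdgfrb fell at all 3 doses, Pdgfra, another of the fibroblast markers, at 1 and 2 µM, and Egfr at 2 µM. These 1, 2 and 3 of 10 stand beside 3.71%, 6.71% and 7.01% of all genes tested, and 12, 19 and 16 of the 20 fibroblast markers fell at the same doses. With a pseudocount of 5, Pdgfrb in GFP-high, Met at day 9 and Egfr at 2 µM were not called, at 0.65, 0.73 and -0.59. Egfr, the receptor for the EGF in the medium, was at 0.25 to 2.66 TPM.

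The signalling cascade between receptor and ERK was covered by 22 genes, all tested. None was called at day 4 or day 9 of feeder removal, between densities or at 0.5 and 1 µM UNC0638, where 2.28%, 2.6%, 12.5%, 3.71% and 6.71% of all genes tested were called. Hras1 was called in GFP-mid with a ratio of 1.04, Hras1 and Ksr1 in GFP-high, and Braf at 2 µM with a ratio of 1.16. These 1, 2 and 1 of 22 stand beside 4.07%, 9.54% and 7.01% of all genes tested, and none was called with a pseudocount of 5. The MEK gene Map2k1 was at 114 to 167 TPM over the 12 libraries.

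Of 18 other ERK feedback and target genes, 16 were tested. None was called during feeder removal. In the mesenchymal-like culture 6 rose and none fell: Dusp4, Dusp5, Fosl1, Myc, Ccnd1 and Spsb1, with ratios from 1.49 to 2.62, where 10.7% of all genes tested were higher and 1.78% lower. The median of the list was 0.80 beside -0.06 over all genes tested. The part of the fibroblast markers of that library in these values was not tested. In GFP-mid, Dusp4, Myc and Ccnd1 fell, by 1.07 to 1.21, and Dusp5 rose by 1.37, where 0.685% of all genes tested were lower and 3.38% higher. In GFP-high 3 fell, Dusp4 by 1.72, Etv5 by 1.46 and Ccnd1 by 1.24 on the log2 scale, and Dusp5 rose by 1.27, with a list median of -0.33 beside -0.02 over all genes tested, where 2.59% were lower and 6.94% higher. The myeloid and fibroblast markers that differed between the fractions are given above, and their part was not tested. Etv5, a close relative of Etv4, was at 614, 319 and 222 CPM from GFP-low to GFP-high. Under UNC0638, Myc fell by 1.01 at 0.5 µM and by 1.31 at 2 µM. At 1 µM, Dusp5 rose by 1.39 and Spred3 fell by 1.03, and at 2 µM, Dusp7 and Ier3 rose by 1.03 and 1.04. These 1, 2 and 3 of 16 at the rising doses stand beside 3.71%, 6.71% and 7.01% of all genes tested. With a pseudocount of 5, of these only the Dusp5 call at 1 µM was kept, and in GFP-mid those of Dusp4 and Myc were not.

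**Figure D4:**
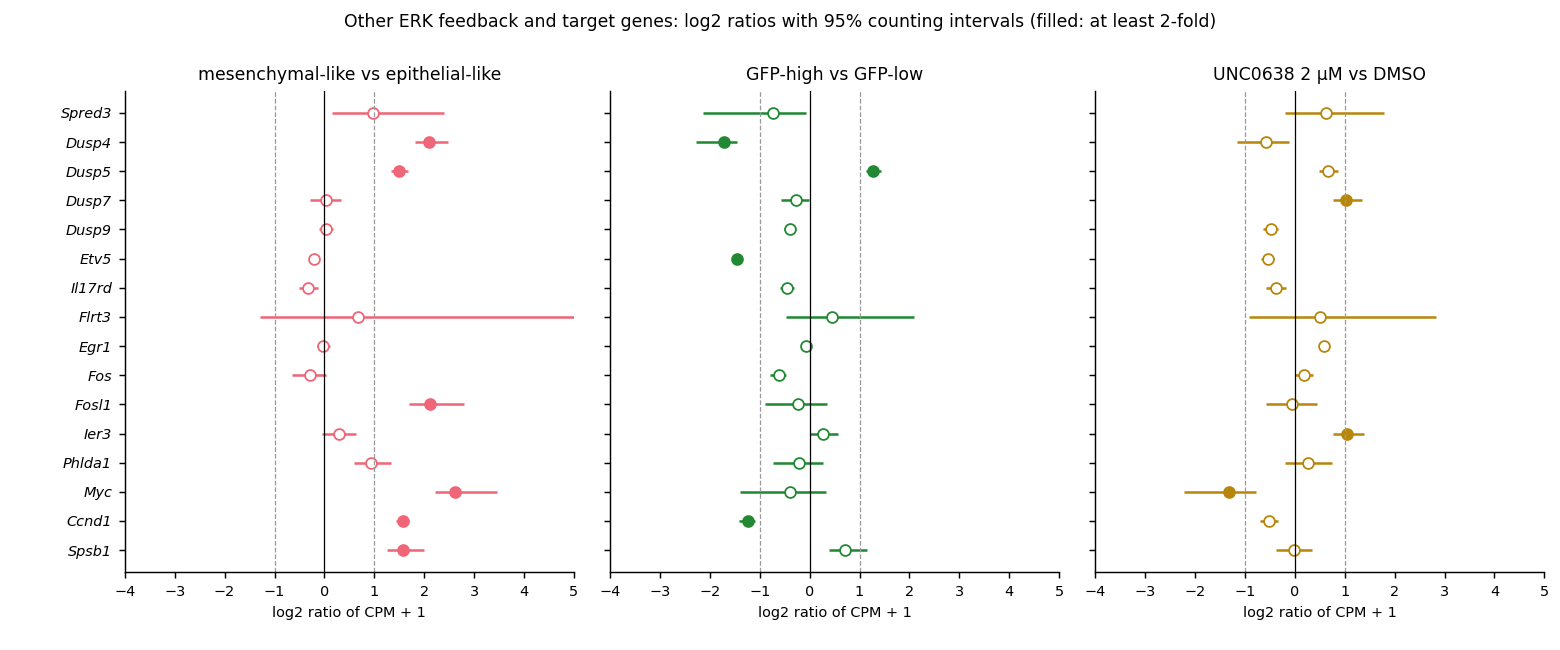
Log2 ratio of CPM + 1 for the other ERK feedback and target genes between the Matrigel densities, between the GFP-high and GFP-low fractions and between 2 µM UNC0638 and DMSO, with bars for the 95% counting interval, dashed lines at the 2-fold threshold and filled points for genes past it; the interval of Flrt3 between the densities runs past the axis. Dusp4, Dusp5, Fosl1, Myc, Ccnd1 and Spsb1 lie above the threshold in the mesenchymal-like culture. In GFP-high, Dusp4, Etv5 and Ccnd1 lie below it and Dusp5 above it. At 2 µM, Myc lies below it and Dusp7 and Ier3 above it.

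The genes whose levels most resembled each of the 9 tested members were taken from 7342 candidates by Pearson correlation of log2 CPM + 1 over the 12 libraries, which share experiments and are not replicates. The value with the mean of each experiment removed follows in brackets. For Dusp6 the closest were Gfra1, which encodes the GDNF co-receptor, at 0.971 (0.916), Serinc3 at 0.964 (0.949) and Mical1 at 0.961 (0.939). For Spry4 they were Hs3st3b1 at 0.976 (0.935), Hhex at 0.965 (0.89) and B3gnt1 at 0.956 (0.865). For Fgfr1 they were Snx9 at 0.919 (0.943), Procr at 0.908 (0.892) and Galnt10 at 0.902 (0.892).

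The likeness to Etv4 and Fgfr3 lay partly in differences between experiments. Etv4 most resembled Ring1 at 0.991 (0.577), Foxo3a at 0.986 (0.553) and Eif1 at 0.986 (0.781), and Fgfr3 most resembled Pcnxl3 at 0.957 (0.900), Rgma at 0.95 (0.355) and Slc17a7 at 0.949 (0.556). For Fgfr2 the closest were Kctd12 at 0.899 (0.899), Btg3 at 0.888 (0.86) and Atoh8 at 0.857 (0.859). Those of Spry1 were Klhl11 at 0.886 (0.829), Klhl22 at 0.866 (0.701) and Aldh1a3 at 0.809 (0.701). For Spred1 they were Cutl1 at 0.934 (0.876), Mark1 at 0.933 (0.908) and Klf13 at 0.930 (0.861), and for Spred2 Gnai2 at 0.970 (0.852), Nek9 at 0.964 (0.885) and Aplp1 at 0.958 (0.872). Among the members, Spry4 and Dusp6 resembled each other at 0.944 (0.912).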

How the data were processed

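Per the submitters' processing notes, reads were handled with Trim Galore and RSEM against mm10; the versions, aligner and annotation release are not given in the sources used here. The authors deposited 1 table a library, and per the file headers each of its 27128 genes has an expected count, besides TPM and FPKM. The deposited expected counts are not normalized, and in the deposited TPM the authors adjusted for gene length and library size. The FPKM were not used.

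Expected counts were rounded and scaled to CPM with TMM factors of 0.912 to 1.07 from edgeR 4.0.16 in R 4.3.3. Ratios used CPM + 1, which understates changes of low genes. A level of 3 counts, taken as the floor, is 0.238 to 0.724 CPM. The members and lists were chosen with earlier results of these data known. All 10 members are named, with any gene of the lists, and for each tested member the 3 genes of highest correlation whose log2 range was at least 1, without predicted loci. Tested on simulated counts for the Matrigel densities, all 200 genes set to a 4-fold difference were called among 14292 genes tested, as were 90 unchanged genes. The 200 were drawn from well-counted genes, with counting noise only. Changes of low genes and variation between cultures were therefore not covered. The alternatives were the deposited TPM, size factors from DESeq2 1.42.0, library totals without a factor, a lower (0.1) and a higher (5) pseudocount, dropping the filter or raising it to 10 CPM, and, chosen after seeing the data, centring on the germ cell markers.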

Additional observations from a re-analysis of the deposited data

How the results depend on the processing

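The number of members called stayed within 1.5 times under every alternative in 8 of the 9 comparisons. The exception was GFP-mid against GFP-low, where a pseudocount of 5 left 1 call of the 3. Single calls that moved beside those given above were Spred1 in GFP-high, at 1.07 on deposited TPM and 1.00 when 0.1 was the pseudocount, and Spry4 in GFP-mid, at -0.95 on deposited TPM, -0.99 when 5 was the pseudocount and -0.93 when centred on germ cell markers. Centred in that way, Spred1 was past the threshold in GFP-mid at 1.03, and Spred1 and Spred2 between DMSO and feeder day 0 at 1.22 and 1.17. In that last comparison, Fgfr2 was past it at -1.16 when 0.1 was the pseudocount. Of 99 counts over the lists, 31 moved by over 1.5 times with a pseudocount of 5, 33 with the filter at 10 CPM, 26 with a pseudocount of 0.1, 14 when centred, 13 on deposited TPM, 6 without a filter, and 1 each with DESeq2 size factors and total counts. Of 53 calls of pathway list genes within experiments, 24 were lost with a pseudocount of 5, among them those of Myc in GFP-mid and under UNC0638 and of Dusp4 in GFP-mid. The number of all genes called also moved: with a pseudocount of 5 it was 17 in place of 326 at day 4, 30 in place of 372 at day 9, 1004 in place of 1781 between densities, 182 in place of 582 in GFP-mid, 521 in place of 1364 in GFP-high, 76 in place of 531 at 0.5 µM, 302 in place of 960 at 1 µM, 228 in place of 1003 at 2 µM and 1299 in place of 2776 between DMSO and feeder day 0. The filter at 10 CPM gave, in the same order, 29, 84, 680, 280, 622, 96, 303, 285 and 1507. A pseudocount of 0.1 gave 1031, 1025, 1267, 2150, 1169, 1656 and 1751 in the 7 comparisons within an experiment other than the densities. Centred on germ cell markers, the split into higher and lower was 2338 and 81 in place of 1527 and 254 between densities, 137 and 485 in place of 226 and 305 at 0.5 µM, 636 and 444 in place of 489 and 514 at 2 µM, and 3163 and 423 in place of 1743 and 1033 between DMSO and feeder day 0. This centring put the median log2 ratio of all genes at 0.29 between densities, -0.18 at 0.5 µM and 0.38 between DMSO and feeder day 0, and the deposited TPM put it at 0.13 at day 9 and 0.11 in GFP-high.

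No paired analysis was possible because each RNA group has 1 library. Without replicates, differences near 2-fold cannot be set against a spread, and Fgfr2 and Spry2 are limited further by their low counts.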
